A study of Mus musculus with 8 samples.

Results

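The genes described here were 10 members of the machinery that takes a cell from G1 into S phase. They were 4 CDK inhibitors (Cdkn1a, Cdkn1b, Cdkn2c and Cdkn2d), the D-type cyclins Ccnd2 and Ccnd3, the kinases Cdk4, Cdk6 and Cdk2, and the cyclin Ccne2. The members were taken by name from the table of gene counts, which holds 27594 genes, and all 10 passed the filter on low counts that left 14540 genes to be tested. Bulk RNA sequencing had been done on regulatory T (Treg) cells sorted from spleen and peripheral lymph nodes of C57BL/6 mice aged 6 to 8 weeks. WT cells came from Foxp3-YFP-Cre mice and Foxp1-deficient cells from Foxp1fl/fl Foxp3-YFP-Cre mice, so the controls carried the Cre as well. The Cre is a knock-in at the Foxp3 locus and acts in every cell that turns Foxp3 on, and Foxp1 encodes a forkhead transcription factor. Within each genotype the CD4+YFP+ cells were split into resting Treg (rTreg, CD44lowCD62Lhigh) and activated Treg (aTreg, CD44highCD62Llow) cells, with 2 libraries in each of the 4 groups. The sources used here do not say how many mice went into a library, so the p-values below measure only the spread between libraries.

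In quiescent T cells the passage through G1 is held back. D-type cyclins bind CDK4 or CDK6, and these kinases phosphorylate the retinoblastoma protein, which releases E2F factors that switch on cyclin E and the genes of DNA synthesis. The INK4 inhibitors, which include the products of Cdkn2c (p18INK4c) and Cdkn2d (p19INK4d), bind CDK4 and CDK6 and keep D-type cyclins away from them. The CIP/KIP inhibitors, the products of Cdkn1a (p21CIP1) and Cdkn1b (p27KIP1), act mainly on CDK2 complexes, and D-type cyclin complexes can hold them.

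The libraries held between 6373170 and 15268623 counts, with a median of 12327710, and 3 counts were worth 0.192 to 0.477 CPM, the count per unit of library total. Levels are given as CPM scaled with the TMM factors of edgeR, and levels of different genes were compared only as FPKM, which is per gene length. Foxp1 itself was at 353 and 383 CPM in WT rTreg and 342 and 337 CPM in Foxp1-deficient rTreg cells, against 234 and 230 CPM in WT aTreg and 126 and 101 CPM in Foxp1-deficient aTreg cells. A gene-level count also takes reads from transcripts that lack only the deleted exons, so these values are no check of the genotype labels in rTreg cells. The Treg markers examined, Foxp3, Cd4, Cd3e, Cd3d, Il2ra, Ctla4, Ikzf2 and Tnfrsf18, were detected in every library. In sorted bulk samples, fewer cells that express a gene and less of its RNA per cell cannot be told apart.

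Per gene length, the most abundant members were the same in all 8 libraries. Cdkn1b (66.4 to 86.7 FPKM) and Ccnd2 (44.8 to 84.9 FPKM) took ranks 1 and 2 in each library. Cdkn2d, Cdk4 and Ccnd3 followed at ranks 3 to 5, with FPKM values between 19.1 and 56.9. Cdk6 (7.07 to 13.9 FPKM) and Cdk2 (7.17 to 10.7 FPKM) were lower, at ranks 6 to 8. Cdkn2c moved between ranks 7 and 10 (0.587 to 11.3 FPKM), while Ccne2 and Cdkn1a stayed at or below 2.35 and 4.58 FPKM. Treg cells of all 4 groups thus held more RNA per gene length for p27KIP1 and cyclin D2 than for p21CIP1 and cyclin E2.

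**Figure D1:**
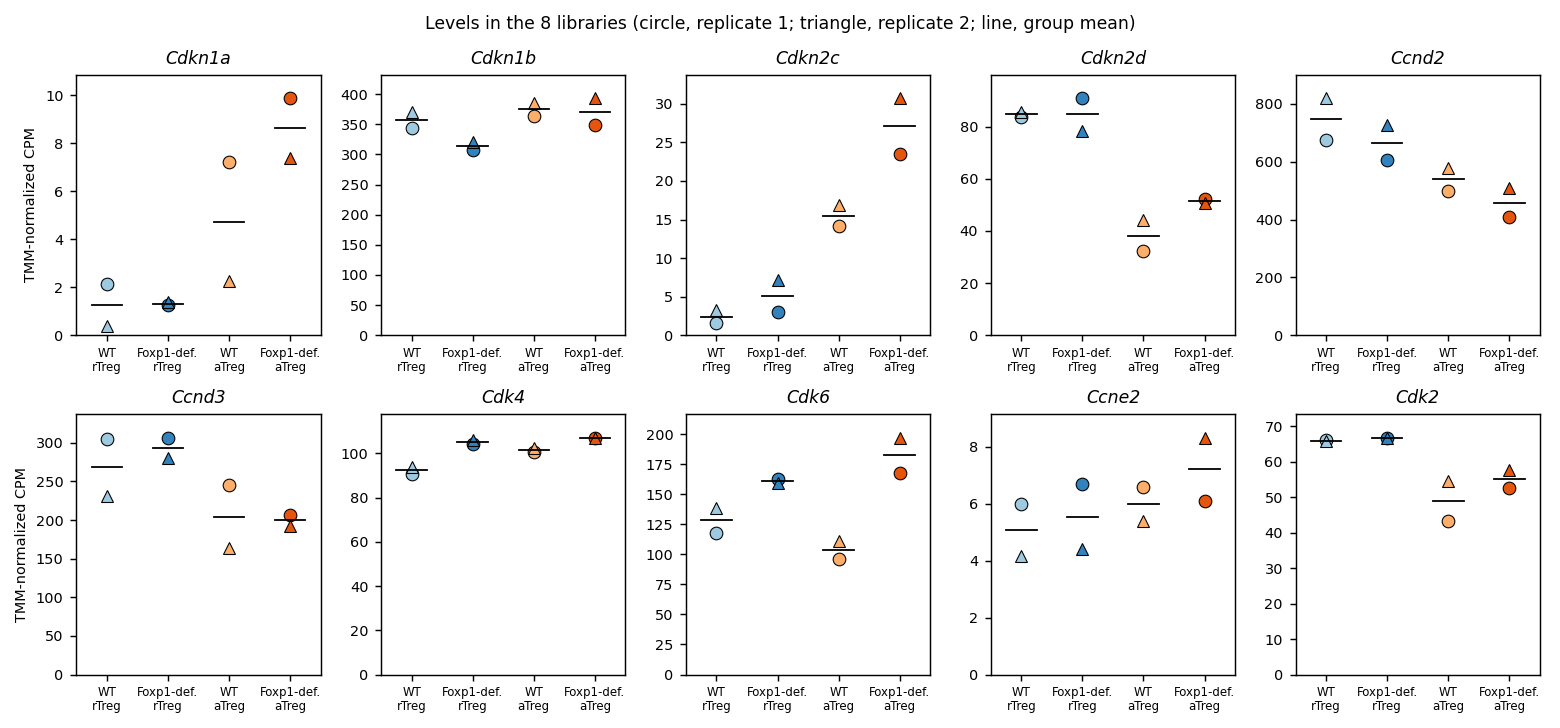
TMM-normalized CPM of each of the 10 genes in the 8 libraries, with groups on the horizontal axis, circles for replicate 1, triangles for replicate 2 and a line at the mean of each group. Cdkn2c and Cdkn1a were highest in aTreg cells, Cdkn2d and Ccnd2 were highest in rTreg cells, and Cdk6 was highest in Foxp1-deficient aTreg cells.

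Each genotype comparison set Foxp1-deficient cells against WT cells of one subset, and a gene was called at a Benjamini-Hochberg adjusted p under 0.05 in edgeR's quasi-likelihood test together with at least a 1.5-fold difference. In rTreg cells 1 member was called higher (Cdkn2c), against 5.6% of all genes tested that were called in either direction. In aTreg cells 1 member was again called higher (Cdk6), against 4.03% of all genes. No member was called lower in either subset by edgeR, limma-voom or DESeq2. At an unadjusted p under 0.05 in edgeR, 3 members were higher and 2 lower in rTreg cells. This compares with 4148 of the 14540 genes tested, in either direction. In aTreg cells 4 members were higher and 1 lower, beside 3385 of the 14540 genes. With the adjusted p alone, Cdk6 passed in rTreg cells and Ccnd2 in aTreg cells besides the called genes, which made 2 of 10 members in each subset against 12% and 6.88% of all genes, and 0 in each without the replicate block (edgeR). The median log2 difference over the 10 members was 0.12 in rTreg cells and 0.24 in aTreg cells, beside 0.0029 and 0.0019 over all genes.

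The comparisons between subsets set aTreg against rTreg cells within a genotype, asked for at least a 2-fold difference, and used the same 8 libraries as the genotype comparisons. In WT cells 3 members were called, with Cdkn1a and Cdkn2c higher and Cdkn2d lower in aTreg cells, against 12.3% of all genes. In Foxp1-deficient cells 2 members were called, Cdkn1a and Cdkn2c, both higher in aTreg cells, against 15.7% of all genes. No member was called lower there by edgeR, limma-voom or DESeq2. At an unadjusted p under 0.05 in edgeR, 3 members were higher and 4 lower, beside 7108 of the 14540 genes tested, in either direction. By the adjusted p alone, 7 of 10 members passed in each genotype, against 31.9% and 40.1% of all genes. Without the replicate block these counts were 2 in WT cells (Cdkn2c and Cdkn2d) and 4 in Foxp1-deficient cells (Cdkn1a, Cdkn2c, Cdkn2d and Ccnd2). The median over the members was -0.12 in WT and 0.10 in Foxp1-deficient cells, beside -0.0046 and -0.018 over all genes.

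**Figure D2:**
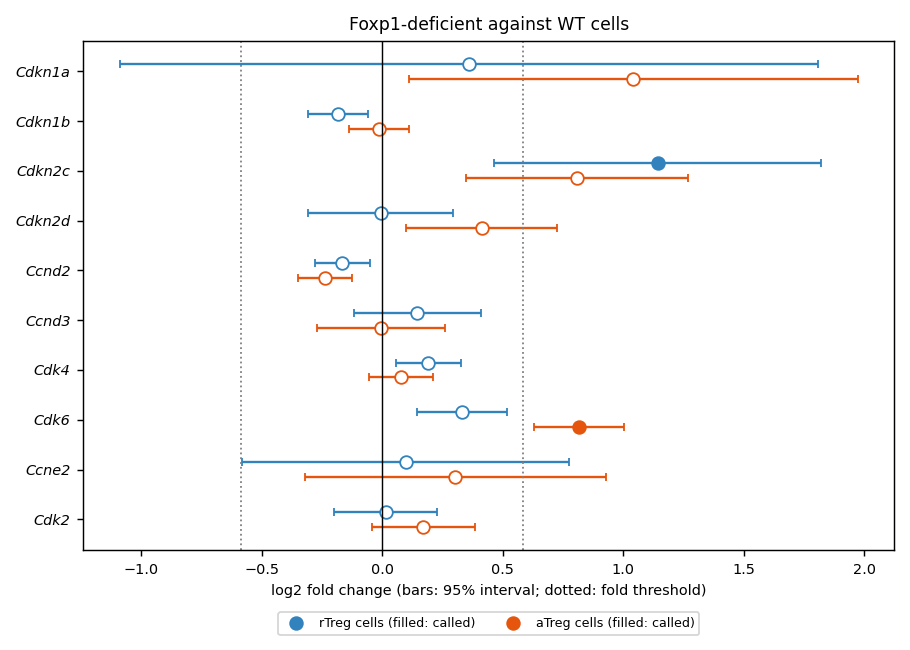
Log2 fold change of Foxp1-deficient against WT cells for the 10 genes, in rTreg (blue) and aTreg (orange) cells, with bars for the 95% interval of the edgeR fit, filled points for called genes and dotted lines at the fold threshold of 1.5. Cdkn2c in rTreg cells (1.14) and Cdk6 in aTreg cells (0.82) were the called values.

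Cdkn2c, which codes for the INK4 inhibitor p18INK4c, had the wider range of the INK4 pair by fold, though not in CPM. The WT rTreg libraries had 1.56 and 3.22 CPM and the Foxp1-deficient rTreg libraries 3.02 and 7.21 CPM. In WT aTreg cells it reached 14.1 and 16.8 CPM, and in Foxp1-deficient aTreg cells 23.4 and 30.7 CPM. The 2 rTreg groups overlapped narrowly, since the lower Foxp1-deficient library lay just under the higher WT library, while both aTreg groups stood apart from each other and from rTreg cells.

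In rTreg cells Cdkn2c rose by 1.14 ± 0.29 (log2, SE) without Foxp1, a 2.21-fold difference with an adjusted p of 0.0451 in edgeR. Within replicates 1 and 2 the log2 difference was 0.88 and 1.12. The call rested on few counts, 17 and 41 in WT against 19 and 100 in Foxp1-deficient cells. Without Foxp1-deficient rTreg replicate 2 the difference was 0.56 with an adjusted p of 0.504, and without the replicate block it was 1.15 with an adjusted p of 0.267, both in edgeR. The call was also lost without WT rTreg replicate 1 (0.94, adjusted p = 0.184 in edgeR) and without WT rTreg replicate 2 (1.48, adjusted p = 0.130). Leaving out Foxp1-deficient aTreg replicate 1 or 2 gave 1.13 each with an adjusted p of 0.0664 and 0.0686 in edgeR.

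In aTreg cells the Cdkn2c difference was 0.81 ± 0.20 (log2, SE), with a 95% interval from 0.35 to 1.27 and an adjusted p of 0.0527 in edgeR. Both Foxp1-deficient libraries were above both WT libraries, on 280 and 428 counts against 129 and 263, and the difference was 0.72 and 0.86 within the replicates. Of 18 other settings 15 did not pass either, among them edgeR without the replicate block (0.80, adjusted p = 0.470) and DESeq2 (0.80, adjusted p = 0.121). It passed with limma-voom (0.83, adjusted p = 0.0273), in edgeR without the filter on low counts (0.82, adjusted p = 0.00162) and with the 4 aTreg libraries fitted alone (0.79, adjusted p = 0.0354). The genotype difference in aTreg minus that in rTreg cells was -0.33 ± 0.35 (log2, SE; 95% interval -1.15 to 0.49), with an adjusted p of 0.768 in edgeR. A larger difference in one subset was therefore not detected for this gene.

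Between subsets Cdkn2c showed the largest fold difference of the 10 members in WT cells. It was 6.49-fold higher in aTreg than in rTreg cells of WT mice (log2 difference 2.70 ± 0.26, SE, adjusted p = 2.17e-04, edgeR). In Foxp1-deficient cells it was 5.16-fold higher in aTreg cells (2.37 ± 0.23, adjusted p = 1.60e-04, edgeR). Every aTreg library lay above every rTreg library.

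Markers of other cells moved with the subset as well, beside the differences of Cdkn2c, Cdkn1a and Cdkn2d. The B cell markers Cd79b and Pax5 were called higher in aTreg cells of both genotypes (edgeR), with Cd79b at 4.32 to 5.33 CPM in the rTreg and 14.6 to 17.3 CPM in the aTreg libraries. Pax5 had no more than 15 counts in any library, and Ms4a1 and Ebf1 no more than 4. Of 4 CD8 and NK cell markers 2 were tested and Klrb1c was called higher in aTreg cells of both genotypes, while their sum was 12.7 to 16.6 CPM in the rTreg and 8.25 to 12.7 CPM in the aTreg libraries. The myeloid marker S100a9 was called higher in aTreg cells of WT mice and not in those of Foxp1-deficient mice (edgeR). For the plasma cell marker Sdc1 the call was in Foxp1-deficient and not in WT cells (edgeR). The part of these transcripts in the subset differences was not tested.

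Cdkn2d, the INK4 gene for p19INK4d, ran the other way between subsets. Among rTreg cells its levels were 83.8 and 85.5 CPM with Foxp1 (WT) and 90.9 and 78.5 CPM without it. Among aTreg cells they were 32.4 and 44.0 CPM with Foxp1 and 52.2 and 50.5 CPM without it. The rTreg groups overlapped, and each aTreg library was below each rTreg library. In WT cells Cdkn2d fell by 1.13 ± 0.13 (log2, SE) from rTreg to aTreg, a 2.19-fold difference (adjusted p = 5.93e-04, edgeR). Without WT aTreg replicate 1 the log2 difference was -0.91, under the 2-fold limit. In Foxp1-deficient cells the difference was -0.71 ± 0.13 (adjusted p = 0.00386, edgeR), which passed the adjusted p and not the fold.

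Cdkn2d did not pass between genotypes. The log2 difference was -0.0076 ± 0.13 (SE, adjusted p = 0.983, edgeR) in rTreg cells and 0.41 ± 0.14 (95% interval 0.097 to 0.73, adjusted p = 0.118, edgeR) in aTreg cells. Both Foxp1-deficient aTreg libraries were above both WT aTreg libraries. The value in aTreg cells depended on the WT libraries, at 0.70 without WT aTreg replicate 2 (adjusted p = 0.0299, edgeR) and 0.19 without WT aTreg replicate 1 (adjusted p = 0.357). Without the replicate block its adjusted p was 0.307 in edgeR.

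The opposite subset differences of the INK4 pair changed the make-up of its summed level. The sum of Cdkn2c and Cdkn2d was 54.3 and 54.2 FPKM in WT rTreg and 58.0 and 50.6 FPKM in Foxp1-deficient rTreg cells. It was 26.6 and 35.0 FPKM in WT aTreg and 43.2 and 42.9 FPKM in Foxp1-deficient aTreg cells, so the aTreg groups did not overlap. Cdkn2c made up 1.08% to 5.11% of the sum in the rTreg libraries and 18.3% to 26.3% in the aTreg libraries. Cdkn2d was therefore the more abundant INK4 transcript of the pair in all 8 libraries.

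**Figure D3:**
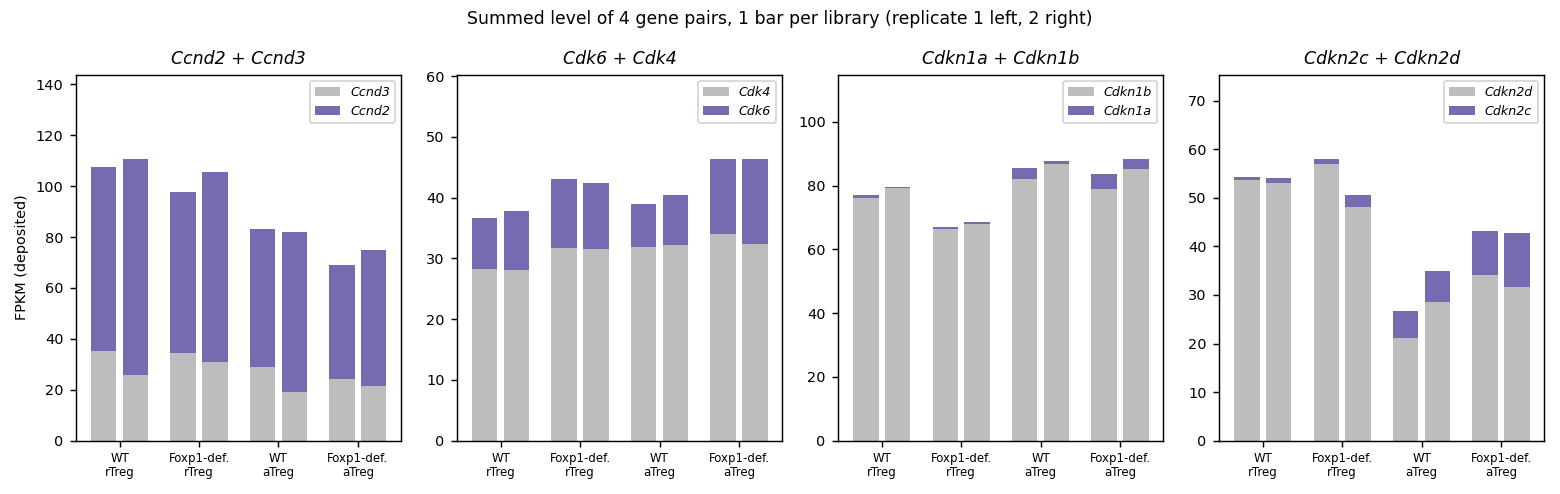
Summed deposited FPKM of the gene pairs Ccnd2 and Ccnd3, Cdk6 and Cdk4, Cdkn1a and Cdkn1b, and Cdkn2c and Cdkn2d, with 1 bar per library (replicate 1 left, replicate 2 right in each group) and the colours dividing each bar between the genes. The sum of Cdkn2c and Cdkn2d was lower in the aTreg libraries (26.6 to 43.2 FPKM) than in the rTreg libraries (50.6 to 58.0 FPKM), with a larger part from Cdkn2c.

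Cdk6, the kinase that INK4 proteins and D-type cyclins compete for together with CDK4, had the clearest genotype difference. WT rTreg cells had 118 and 139 CPM and Foxp1-deficient rTreg cells 162 and 159 CPM. WT aTreg cells had 96.0 and 111 CPM and Foxp1-deficient aTreg cells 168 and 197 CPM. The 4 groups did not overlap, and their order from high to low was Foxp1-deficient aTreg, Foxp1-deficient rTreg, WT rTreg and WT aTreg cells.

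In aTreg cells Cdk6 was 1.76-fold higher without Foxp1, a log2 difference of 0.82 ± 0.080 (SE) with a 95% interval from 0.63 to 1.00 and an adjusted p of 0.00236 in edgeR. The difference was 0.80 and 0.83 within replicates 1 and 2. It kept its call without each of the 8 libraries in turn, over a range of 0.77 to 0.86. Without the replicate block the value was 0.82 with an adjusted p of 0.0502 in edgeR, just above the threshold. In rTreg cells the difference was 0.33 ± 0.080 (log2, SE; 95% interval 0.14 to 0.51), or 1.26-fold, with an adjusted p of 0.0376 in edgeR. Within replicates it was 0.46 and 0.20, and it passed the adjusted p and not the 1.5-fold limit. Without the replicate block its adjusted p was 0.249 in edgeR.

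The difference between the genotype effects on Cdk6 in aTreg and rTreg cells was 0.49 ± 0.11 (log2, SE; 95% interval 0.22 to 0.75). Its unadjusted p was 0.00279 and its adjusted p 0.120 in edgeR, so it was not called. No member was called in that comparison, against 0.33% of all genes. Cdk6 was the 1 member with an unadjusted p under 0.05 in edgeR, beside 1862 of the 14540 genes tested. With DESeq2 the Cdk6 value passed (0.51, adjusted p = 0.0370), whereas no member passed with limma-voom. Between subsets Cdk6 was lower in aTreg than rTreg cells of WT mice (-0.31 ± 0.080, adjusted p = 0.0223, edgeR, under the 2-fold limit), with an adjusted p of 0.149 without the block. In Foxp1-deficient cells the value was 0.18 ± 0.079 (adjusted p = 0.111, edgeR).

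A few transcripts of other blood cells moved with genotype beside these results. The summed level of 8 myeloid markers was 1.93 and 1.18 CPM in WT rTreg, 16.4 and 6.42 in Foxp1-deficient rTreg, 5.48 and 4.99 in WT aTreg and 28.8 and 5.31 in Foxp1-deficient aTreg cells. Of the 5 that were tested, S100a8, S100a9 and Mpo were called higher in Foxp1-deficient rTreg cells and Mpo in Foxp1-deficient aTreg cells (edgeR), and Mpo had 0 counts in both WT rTreg libraries. The plasma cell markers Jchain and Sdc1 summed to 2.02 and 0.39 CPM in WT rTreg, 7.48 and 4.76 in Foxp1-deficient rTreg, 3.07 and 2.56 in WT aTreg and 11.6 and 3.23 in Foxp1-deficient aTreg cells, and Jchain was called in rTreg cells. Without Foxp1-deficient aTreg replicate 1, the library with the highest myeloid sum, the Cdk6 difference in aTreg cells was 0.86 (log2, edgeR). Without replicate 2 of that group it was 0.77. Without Foxp1-deficient rTreg replicate 1, the higher of its group in myeloid sum, the Cdkn2c difference in rTreg cells was 1.38. Without replicate 2 of that group it was 0.56. The Foxp1-deficient rTreg library with the lower myeloid sum (6.42 CPM) was still above both WT rTreg libraries. The part of these transcripts in the Cdk6 and Cdkn2c differences was not tested.

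Cdk4, the other kinase partner of the D-type cyclins, varied little. It was at 90.9 and 93.7 CPM in WT rTreg and 104 and 106 CPM in Foxp1-deficient rTreg cells. WT aTreg cells had 101 and 102 CPM, and both Foxp1-deficient aTreg libraries had 107 CPM. The groups did not overlap, yet no Cdk4 comparison passed, with a genotype difference of 0.19 ± 0.058 (log2, SE, adjusted p = 0.0740, edgeR) in rTreg cells and 0.077 ± 0.057 (adjusted p = 0.472, edgeR) in aTreg cells. Of the summed FPKM of the kinase pair, Cdk6 took 18.1% and 20.1% in the WT aTreg libraries, against 26.7% and 30.0% in those without Foxp1. In WT rTreg cells the share was 23.1% and 25.6%, and in Foxp1-deficient rTreg cells 26.6% and 25.8%. Cdk4 thus remained the larger part of the pair in all 8 libraries.

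Cdk6 lies on chromosome 5 of the GRCm38 assembly, at chr5:3341485-3531008 on the plus strand. The bases just before its start in the RefSeq promoter table (GRCm38.p6, chr5:3343789-3343892, plus strand) are shown because this gene carried the genotype call in aTreg cells. That start lies inside the gene span given above, downstream of its first base. The bases before chr5:3341485 were not searched. The run holds no capitals because none of the forkhead and E2F motifs searched was found in it.
Cdk6: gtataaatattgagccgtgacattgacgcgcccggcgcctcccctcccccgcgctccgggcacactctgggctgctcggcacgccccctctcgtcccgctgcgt

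The search covered the 250 bases before each start of the promoter table, on both strands. It looked for the forkhead letters TGTTTAC and TGTTTGC and the E2F letters TTTCCCGC and TTTGGCGC. The table held 8 of the 10 members with 11 starts, and Ccnd2 and Ccne2 were not in it. TGTTTAC was in 3.17% of the 32851 starts of all genes and in 1 of the 11 member starts, that of Ccnd3. TTTCCCGC was in 0.89% of all starts and in 1 member start, that of Cdk2, and TGTTTGC (4.3% of all starts) and TTTGGCGC (0.42%) were in none. Those matches are shown with the motif in capitals, from chr17:47504801-47504860 on the plus strand for Ccnd3 and from chr10:128705174-128705203 on the minus strand for Cdk2, where the match is read on the other strand. A match is only a run of letters, and neither gene was called between genotypes.
Ccnd3: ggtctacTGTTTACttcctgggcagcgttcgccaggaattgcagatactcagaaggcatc
Cdk2: aaaccaggaactGCGGGAAAgttgtgcagc

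Ccnd2, which codes for cyclin D2, was the most abundant D-type cyclin transcript of the pair. It was at 676 and 819 CPM in WT rTreg and 605 and 728 CPM in Foxp1-deficient rTreg cells. WT aTreg cells had 498 and 579 CPM and Foxp1-deficient aTreg cells 409 and 507 CPM. In both subsets the genotypes overlapped across replicates, but each Foxp1-deficient library was below the WT library of the same replicate number. The paired log2 difference in aTreg cells was -0.24 ± 0.049 (SE, adjusted p = 0.0304, edgeR), or 1.18-fold lower, which passed the adjusted p and not the fold. In rTreg cells it was -0.17 ± 0.049 (adjusted p = 0.0661, edgeR). Without the replicate block the adjusted p was 0.639 in aTreg and 0.676 in rTreg cells (edgeR).

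Each rTreg library of Ccnd2 was above each aTreg library. The subset difference was -0.47 ± 0.049 (log2, SE, adjusted p = 3.16e-04, edgeR) in WT cells and -0.54 ± 0.049 (adjusted p = 1.12e-04, edgeR) in Foxp1-deficient cells, both under 2-fold. Without the replicate block the adjusted p was 0.0902 and 0.0469.

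Ccnd3, which codes for cyclin D3, differed more between the WT replicates than between the genotype means. Its levels were 306 and 232 CPM in the WT rTreg libraries, 307 and 281 CPM in the Foxp1-deficient rTreg, 245 and 164 CPM in the WT aTreg and 207 and 193 CPM in the Foxp1-deficient aTreg libraries. Neighbouring groups overlapped. The genotype difference was 0.14 ± 0.11 (log2, SE, adjusted p = 0.452, edgeR) in rTreg and -0.0060 ± 0.11 (adjusted p = 0.984, edgeR) in aTreg cells. From rTreg to aTreg cells Ccnd3 differed by -0.40 ± 0.11 in WT (adjusted p = 0.0293, edgeR) and by -0.56 ± 0.11 in Foxp1-deficient cells (adjusted p = 0.00615, edgeR), under 2-fold in both, and without the replicate block neither passed (0.248 and 0.0924).

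The summed level of Ccnd2 and Ccnd3 averaged 109 FPKM in WT rTreg, 102 in Foxp1-deficient rTreg, 82.7 in WT aTreg and 71.9 in Foxp1-deficient aTreg cells (n = 2 each). Ccnd2 supplied 64.8% to 76.7% of it, and in every group its share was higher in replicate 2. The kinase pair Cdk4 and Cdk6 ran differently, with means of 37.3, 42.8, 39.7 and 46.3 FPKM in the same order of groups.

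Cdkn1b, the gene for p27KIP1, was the most evenly expressed inhibitor. The WT rTreg libraries had 344 and 370 CPM, the Foxp1-deficient rTreg 307 and 321, the WT aTreg 363 and 386 and the Foxp1-deficient aTreg libraries 349 and 393 CPM. The Foxp1-deficient rTreg group lay below the others, and the other three overlapped. Its genotype difference was -0.19 ± 0.054 (log2, SE, adjusted p = 0.0644, edgeR) in rTreg cells and -0.015 ± 0.054 (adjusted p = 0.900, edgeR) in aTreg cells. Between subsets it was 0.070 ± 0.054 in WT (adjusted p = 0.363, edgeR) and 0.24 ± 0.054 in Foxp1-deficient cells (adjusted p = 0.00921, edgeR), the latter under 2-fold and with an adjusted p of 0.104 without the replicate block.

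Cdkn1a, the gene for p21CIP1 and a classical p53 target, was read from few counts. WT rTreg cells had 23 and 5 counts (2.12 and 0.39 CPM) and Foxp1-deficient rTreg cells 8 and 19 counts (1.27 and 1.37 CPM). WT aTreg cells had 66 and 35 counts (7.23 and 2.24 CPM) and Foxp1-deficient aTreg cells 118 and 103 counts (9.88 and 7.39 CPM). Each aTreg library was above each rTreg library, but the lowest aTreg library (2.24 CPM) only narrowly cleared the highest rTreg library (2.12 CPM). The Foxp1-deficient aTreg group likewise cleared the higher WT aTreg library only narrowly.

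Between subsets Cdkn1a was 3.71-fold higher in aTreg cells of WT mice (log2 difference 1.89 ± 0.51, SE, adjusted p = 0.0256, edgeR) and 5.94-fold higher in aTreg cells of Foxp1-deficient mice (2.57 ± 0.48, adjusted p = 0.00416, edgeR). The WT call was lost without WT rTreg replicate 2 (1.40, adjusted p = 0.129) and without WT aTreg replicate 1 (1.28, adjusted p = 0.200), both in edgeR, and without the replicate block (adjusted p = 0.147). Between genotypes it did not pass, with 0.36 ± 0.62 in rTreg cells (adjusted p = 0.757, edgeR) and 1.04 ± 0.40 in aTreg cells (95% interval 0.11 to 1.97, adjusted p = 0.170, edgeR). In aTreg cells the difference within replicates was 0.44 and 1.65. Cdkn1a made up at most 5.48% of the summed FPKM of Cdkn1a and Cdkn1b in any library.

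**Figure D4:**
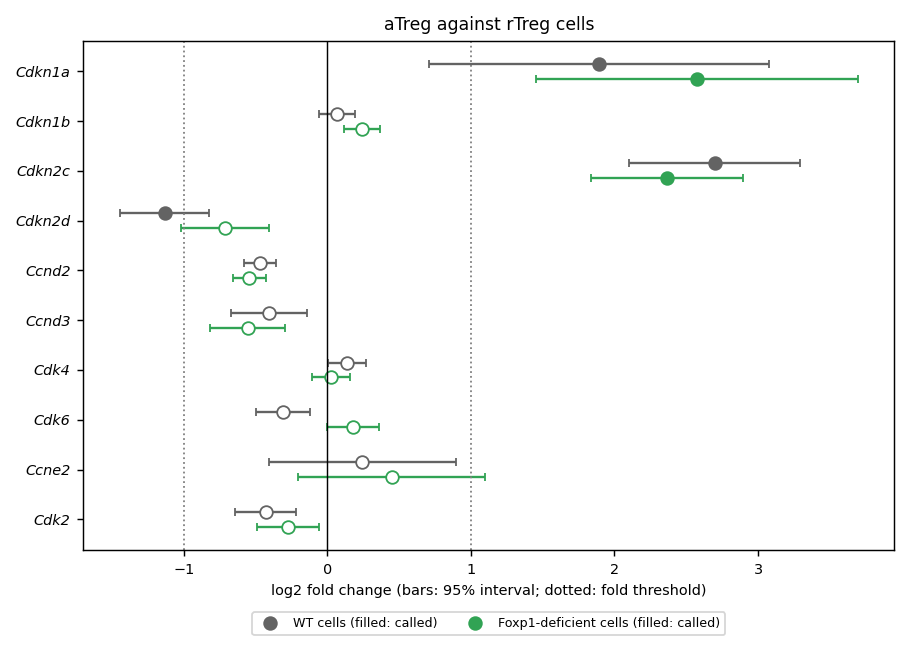
Log2 fold change of aTreg against rTreg cells for the 10 genes, in WT (grey) and Foxp1-deficient (green) cells, with bars for the 95% interval of the edgeR fit, filled points for called genes and dotted lines at the 2-fold threshold. Cdkn1a and Cdkn2c were called higher in both genotypes, and Cdkn2d was called lower in WT cells.

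Ccne2, which codes for the E2F-regulated cyclin E2, was low in all groups. It was at 5.98 and 4.16 CPM in WT rTreg, 6.68 and 4.40 CPM in Foxp1-deficient rTreg, 6.57 and 5.38 CPM in WT aTreg and 6.11 and 8.33 CPM in Foxp1-deficient aTreg cells. Neighbouring groups overlapped and no comparison passed. The genotype difference was 0.096 ± 0.29 (log2, SE; 95% interval -0.58 to 0.78, adjusted p = 0.871, edgeR) in rTreg and 0.30 ± 0.27 (-0.32 to 0.93, adjusted p = 0.558, edgeR) in aTreg cells. These intervals still allow more than a 1.5-fold difference.

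Cdk2, the kinase partner of cyclin E, was at 66.0 and 65.9 CPM in WT rTreg and 66.8 and 66.7 CPM in Foxp1-deficient rTreg cells. WT aTreg cells had 43.3 and 54.5 CPM and Foxp1-deficient aTreg cells 52.7 and 57.6 CPM. Every aTreg library was below every rTreg library. The subset difference was -0.43 ± 0.092 (log2, SE, adjusted p = 0.00990, edgeR) in WT and -0.27 ± 0.092 (adjusted p = 0.0476, edgeR) in Foxp1-deficient cells, both under 2-fold, and without the replicate block neither passed (0.0529 and 0.148). Between genotypes it was 0.013 ± 0.092 (adjusted p = 0.953, edgeR) in rTreg and 0.17 ± 0.092 (adjusted p = 0.317, edgeR) in aTreg cells.

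The replicate numbers carried a difference of their own. Xist, transcribed from the inactive X chromosome, had 0 to 3 counts in the replicate 1 libraries and 15098 to 21822 in the replicate 2 libraries, and the Y-linked Ddx3y had 853 to 1781 and 0. Ccnd2, Cdkn1b and Cdkn2c were higher in replicate 2 in all 4 groups and Ccnd3 was lower in all 4. These 4 of 10 members compare with 41.3% of all genes that moved one way between the replicates in all 4 groups. The sex of the mice and anything else that differed between the replicate numbers cannot be told apart here.

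Several members share their locus with a gene on the other strand, and the strand setting of the counting was not given in the sources used here. Ccnd3 overlaps Bysl, Cdk4 overlaps Tspan31, Ccne2 overlaps Ints8 and Cdk2 overlaps Pmel, each of which had no more than 936 counts in any library. The antisense genes at Ccnd2 and Cdk6 had at most 12. For Cdkn1a the length behind the deposited FPKM was 2223 bases, which differs from the merged exons of the annotation used here.

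Among genes that work with the members, many genes of S and M phase were called higher in Foxp1-deficient cells of both subsets. Over 10 lists of pathway genes, 100 genes were tested. In Foxp1-deficient rTreg cells 22 were called higher and 4 lower, against 5.6% of all genes called in either direction. In Foxp1-deficient aTreg cells 20 were called higher and 1 lower, against 4.03% of all genes. The 22 and the 20 include E2f8, and the 20 also Cdkn2a, both described below with their counts. The same shares go with the edgeR counts of the single lists below. Limma-voom and DESeq2, for which no share of all genes is given, called 24 and 23 of the 100 in rTreg cells. In aTreg cells limma-voom called 20, Cdkn2a among them, and DESeq2 14. Some of these genes belong to themes that earlier work on these libraries had singled out, so the counts are no independent evidence of their direction. Of the 5 cyclin and CDK genes of S and M phase, 4 were called higher in rTreg cells by all 3 tools, and in aTreg cells 5 by edgeR and limma-voom and 3 by DESeq2. Ccna2, the S phase partner of CDK2, had a log2 difference of 2.82 in rTreg and 1.77 in aTreg cells, and Cdk1, the mitotic kinase, 2.22 and 1.48. The rTreg values rested on few counts. Ccna2 had 5 and 11 in WT and 20 and 87 in Foxp1-deficient rTreg cells, and Cdk1 8 and 13 against 23 and 64.

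Of 13 E2F and pocket protein genes, 4 were called higher and 1 lower in rTreg cells by all 3 tools, and in aTreg cells 4 were higher by edgeR, 3 by limma-voom and 2 by DESeq2. E2f1, an activator of S phase genes, differed by 2.26 (log2) in rTreg and 0.84 in aTreg cells. E2f8, a repressor of the same family, differed by 3.18 and 1.75, the latter called by edgeR alone. E2f8 had 5 and 3 counts in WT rTreg and 17 and 51 in Foxp1-deficient rTreg cells. Its counts were 7 and 65 in WT aTreg and 62 and 160 in Foxp1-deficient aTreg cells. It passed the filter on low counts through the Foxp1-deficient groups, where it was high, so its calls are not taken as support. Of 17 genes in the S phase list, 7 were called higher in rTreg cells (5 by DESeq2) and 4 in aTreg cells. Among them were the proliferation marker Mki67 (2.75 and 1.53) and the ribonucleotide reductase gene Rrm2 (1.80 and 1.32). A further list held 13 tested genes, grouped with the ubiquitin ligases of CDK inhibitors and G1 cyclins but not all ligases themselves. Of these, Dtl (2.51 and 1.06) and Cks1b (1.20 and 1.02) were called higher in both subsets, and Cks2 (1.00) in rTreg cells. Cks1b in aTreg cells was not called by DESeq2. Of 9 genes of CDK activation and inhibitory phosphorylation, Cdc25b, a phosphatase that activates CDKs, was the 1 called, at 1.06 and 1.08.

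Of 18 p53 genes, 1 was called higher and 3 lower in rTreg cells, and 1 each way in aTreg cells. Sesn1 was lower in both subsets (-0.89 and -1.10). Of 7 DREAM and MuvB genes, Foxm1 (1.04) and Mybl2 (0.82) were called higher in aTreg cells by edgeR and limma-voom, and Foxm1 alone by DESeq2. In rTreg cells edgeR called both (0.94 and 0.67), with adjusted p-values of 0.0491 and 0.0476, and limma-voom and DESeq2 called neither. None of 14 upstream transcription factors was called in either subset by edgeR, limma-voom or DESeq2. In edgeR 7 and 5 of them had an unadjusted p under 0.05 in rTreg and aTreg cells. Over all 14540 genes tested, 4148 and 3385 had such a p. The other 2 G1 cyclins tested were not called by these tools and had no unadjusted p under 0.05. Cdkn2a, the INK4a and ARF locus, was at most at 1 count in the rTreg libraries, at 6 and 9 counts in WT aTreg cells and at 28 and 41 in Foxp1-deficient aTreg cells. It had 10 or more counts only in that last group, so it passed the filter on low counts through the group where it was high. Its call there is among the 20 by edgeR and the 20 by limma-voom above, and it is not taken as support.

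**Figure D5:**
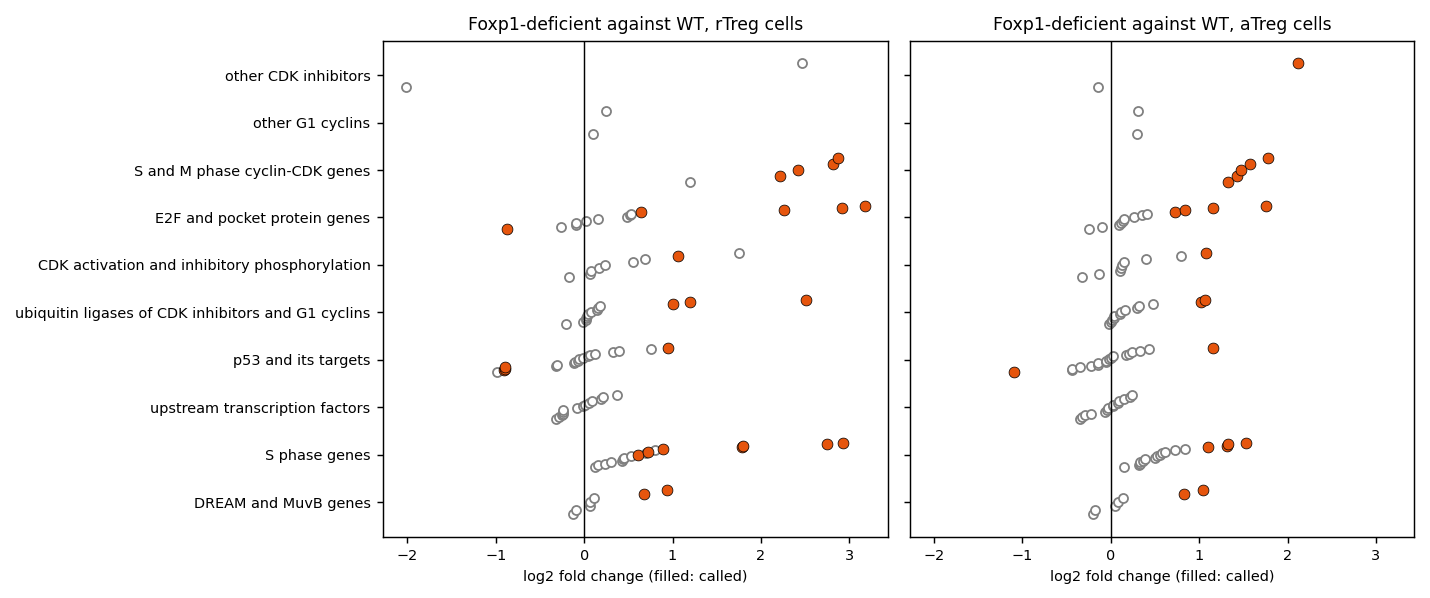
Log2 fold change of Foxp1-deficient against WT cells for the genes of 10 pathway lists, 1 point per gene, with rTreg cells on the left, aTreg cells on the right and filled points for called genes. Genes of S and M phase lay mostly to the right of 0 in both subsets, while upstream transcription factors lay on both sides of 0 with none called.

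The genes whose levels ran most like the called members were named by Pearson correlation of log2 CPM over the 8 libraries, which share their grouping and their replicate difference. For Cdkn2c these were Gprin3 (0.993), AW112010 (0.988) and Lilrb4a (0.988). For Cdk6 they were Mtfr2 (0.978), Scrib (0.971) and Tbc1d25 (0.957).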

How the data were processed

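RNA was measured in 8 libraries, 2 for each genotype and Treg subset. The authors made the counts from paired-end reads by quality control (FastQC), adapter trimming (trim_galore), duplicate removal (Picard) and gene counting (htseq-count). The submitters' processing notes name HISAT2 2.0.5, HTSeq and mm10, and the annotation release was not given in the sources used here. Removal of duplicates can lower the counts of very abundant transcripts. The deposited counts were whole numbers. The deposited FPKM values equalled the counts divided by library total and gene length, with a relative spread of at most 6.98e-05. Coordinates are those of GENCODE M21 (GRCm38), which held 27479 of 27594 identifiers.

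Counts were fitted with edgeR 4.0.16 (R 4.3.3; TMM, filterByExpr, quasi-likelihood F test, Benjamini-Hochberg adjustment over 14540 genes) with group means and replicate number as a block over all 8 libraries, since the study used a paired design. The labels give the numbers. Libraries of the same number deviated together from their group means (correlation 0.38 to 0.60 over genes), which 2 pairs per comparison cannot settle, so fits without the block are given too. In simulated rTreg data with 13877 genes, 161 of 200 genes changed 3-fold were called, and 16 others. Smaller changes, such as the 2.21-fold and 1.76-fold differences of the called members, were not simulated, so their recovery is not known. The 2 libraries of a group differed beyond sampling noise (chi-square per degree of freedom 15.5 to 23.8). The floor of 3 counts covers counting error only. Alternatives used limma 3.58.1 (voom, or log2 of FPKM plus 1 or 0.1) and DESeq2 1.42.0, other scaling, no filter, the libraries of a comparison alone, and each library left out in turn.

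The members and the gene lists were chosen with earlier results of these data known. All 10 members are named. From the lists, genes called in a genotype comparison could be named, up to the 4 largest per list and comparison, and for each member called there the 3 genes most correlated with it.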

Additional observations from a re-analysis of the deposited data

Results flagged for a closer look

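The change of Cdk6 from rTreg to aTreg cells had opposite signs in the genotypes. It was -0.30 and -0.32 (log2) in the WT pairs of replicates 1 and 2, and 0.045 and 0.31 in the Foxp1-deficient pairs. The difference between the genotypes was 0.49 (log2), and its adjusted p in edgeR's interaction test was 0.120. The signs were opposite in all pairs, and the test of the difference did not pass the threshold.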

How the results depend on the processing

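With 2 libraries a group and as few as 5 counts for Cdkn1a and 17 for Cdkn2c in a library, small differences in these genes and in Ccne2 were not detectable at this depth. Leaving out a library leaves its group with 1, which is then assumed to vary like the others. Of 890 values recomputed for single genes, 834 kept direction and side of the threshold. Of the others, 29 changed sign, 20 lost a call and 7 gained one. Most of the 890 belong to results not called in the main fit, so 834 does not measure how well the calls held. Cdkn2c in rTreg cells lost its call in 10 of 18 settings.

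The count of members called higher in rTreg cells (1 in edgeR with the block) was 0 without the replicate block, with limma-voom and with each of the 3 FPKM fits, and 0 to 1 with a library left out. In aTreg cells (1) it was 0 without the replicate block, with log2 FPKM plus 0.1 and with unfiltered log2 FPKM plus 1, and it was 2 with limma-voom, 3 without the filter and 2 with the comparison's libraries alone, and 1 to 2 with a library left out. Between subsets of WT cells the count higher (2) was 1 without the replicate block and in the 3 FPKM fits, and 1 to 2 with a library left out, and the count lower (1) was 0 to 1. In the comparison of genotype effects (0) it was 1 with DESeq2 and 1 without the filter. Cdkn2c in rTreg cells stayed above 0 in all 18 settings (0.56 to 1.48) and Cdk6 in aTreg cells too (0.72 to 0.86). Leaving out the block ended no other call that asks for both the adjusted p and the fold.

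Values near 0 changed sign. Ccnd3 in aTreg cells was 0.0022 with limma-voom and 0.0040 without the filter. Cdk2 in rTreg cells was -0.0011 with median-of-ratios factors, -0.012 with library totals, -0.0083 without the filter, -0.0068 with log2 FPKM plus 1 (filtered or not) and -0.0074 with plus 0.1. The difference of the genotype effects on Cdkn2c was 0.11 with log2 FPKM plus 1, filtered or not. With a library left out, the genotype difference in rTreg cells ran from -0.37 to 1.43 for Cdkn1a, -0.18 to 0.16 for Cdkn2d, -0.15 to 0.36 for Ccne2 and -0.075 to 0.092 for Cdk2. In aTreg cells it ran from -0.058 to 0.029 for Cdkn1b, -0.19 to 0.19 for Ccnd3 and -0.20 to 0.71 for Ccne2. The difference of effects ran from -0.41 to 1.43 for Cdkn1a, -0.68 to 0.24 for Cdkn2c, -0.33 to 0.049 for Ccnd3 and -0.31 to 0.60 for Ccne2, and the subset difference of Ccne2 in Foxp1-deficient cells from -0.052 to 0.86. The cause was not tested.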
